A study of Mus musculus with 2 samples.

Results

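The immunity-related GTPases (IRG proteins) described here were 6 mouse genes, *Irgm1*, *Irgm2*, *Igtp*, *Iigp1*, *Tgtp1* and *Tgtp2*. They were taken by name from a list of family members, and all 6 were found among the 55357 genes of both count matrices and had at least 1 UMI (unique molecular identifier, 1 captured RNA molecule) in the kept cells of each library. Single-cell RNA was measured with the 10x Genomics 3' v3 chemistry in CD45+ cells sorted from subcutaneous tumours of MC38, a mouse colon adenocarcinoma line. The hosts were C57BL/6 mice of a UEIS KI group and a UEIS LSL group. UEIS is a micropeptide that the series title places in cGAS-STING and type I interferon signalling. No gene symbol in the matrices is UEIS, so the labels could not be checked against its own RNA. The labels expand neither KI nor LSL, and the driver of the allele, the age of the mice and any pooling of mice are not given in the sources used here. Each group held 1 library, with 9734 barcodes and 99404988 UMIs in UEIS KI and 9527 barcodes and 92764697 UMIs in UEIS LSL. Quality limits and removal of doublets left 8685 cells in UEIS KI and 8647 in UEIS LSL, with medians of 8642 and 7903 UMIs, and 34 barcode sequences occurred in both libraries. With 1 library per group no difference could be tested. Every 95% interval below covers counting error only, with each UMI taken as independent, and not the spread between cells or between mice.

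IRG proteins are interferon-induced GTPases of cell-autonomous defence, best known in mice for gathering on the vacuoles of intracellular parasites and breaking them. The family has a regulatory branch, called GMS after its nucleotide-binding motif, and an effector branch, called GKS. The GMS proteins *Irgm1*, *Irgm2* and *Igtp* (also Irgm3) sit on the cell's own membranes and hold the effectors inactive there, while the GKS proteins *Iigp1* (Irga6) and *Tgtp1* and *Tgtp2* (Irgb6) load onto the vacuole. Interferon-gamma drives its target genes in the main through promoter elements called GAS, and type I interferon through interferon-stimulated response elements (ISRE).

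Promoters of the family are shown because both interferon elements could be searched in them. RefSeq promoters (build GRCm38.p6, 250 bases before to 50 after each start) were matched for 5 of the 6 members, all on chromosome 11. Each line below gives 60 bases, 5′ to 3′ on the gene's strand, with the matches in capitals. GAS was searched as TTCNNNGAA and ISRE as GAAA, any 2 bases and GAAA, on both strands. The windows are chr11:48871415-48871474 on the minus strand for *Irgm1*, chr11:58214883-58214942 on the plus strand for *Irgm2* and chr11:58199492-58199551 on the plus strand for *Igtp*. Those of *Tgtp1* and *Tgtp2* are chr11:48992294-48992353 and chr11:49064253-49064312, both on the minus strand.
Irgm1: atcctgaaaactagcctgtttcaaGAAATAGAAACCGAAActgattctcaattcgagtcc
Irgm2: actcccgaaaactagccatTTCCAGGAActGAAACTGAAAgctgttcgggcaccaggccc
Igtp: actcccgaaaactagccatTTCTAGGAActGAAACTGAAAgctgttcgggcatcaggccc
Tgtp1: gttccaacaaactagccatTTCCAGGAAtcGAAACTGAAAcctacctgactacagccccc
Tgtp2: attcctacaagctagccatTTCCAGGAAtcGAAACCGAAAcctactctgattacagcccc

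In *Irgm2*, *Igtp*, *Tgtp1* and *Tgtp2* a GAS match was followed by an ISRE match on the same strand, with 2 bases between them in all 4. With the start counted as 0, the GAS match began at -75 in *Irgm2*, -45 in *Igtp*, -88 in *Tgtp1* and -81 in *Tgtp2*. *Irgm1* held no GAS match and 2 overlapping ISRE matches, at -30 to -21 and -24 to -15. Among 32851 RefSeq promoters of the same length, 8.30% held a GAS match, 3.44% an ISRE match and 0.454% both. A GAS and an ISRE match within 10 bases of each other occurred in 22 promoters (0.0670%) of 21 genes, 4 of which were members. Of the other 17 genes, *Gm12250* and *Gm12185* are also IRG family genes, so these matches are not all separate occurrences. In macrophages 8 of the 17 were measured. There *Gm12250* was called lower in UEIS KI, the chemokine gene *Cxcl14* was called higher, and 6 were called neither way. Of all genes measured in macrophages 5.07% were called lower and 5.09% higher, by the limits given below. *Gm12250* and *Cxcl14* were named after their values were seen. *Gm12185* had 7 UMIs in UEIS KI macrophages and 11 in UEIS LSL ones, too few to be measured. A match is a run of letters in this window and says nothing about whether a factor was bound.

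**Figure D1:**
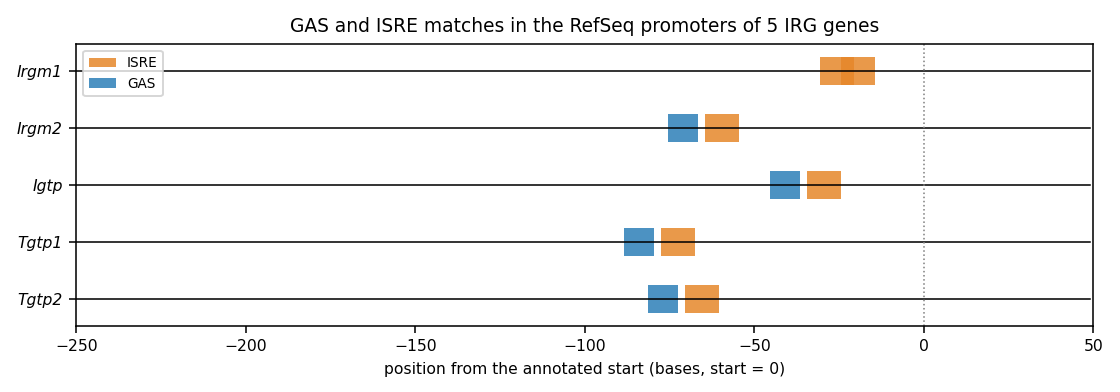
Position of GAS (blue) and ISRE (orange) matches in the RefSeq promoters of 5 IRG genes, in bases from the annotated start (0). In 4 genes a GAS match lies 2 bases before an ISRE match, and *Irgm1* has 2 overlapping ISRE matches and no GAS match.

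The counts of the family are not equally well tied to single genes. The matrices name *Irgm1* (ENSMUSG00000046879, chr11:48861968-48871683, minus strand), *Igtp* (ENSMUSG00000078853, chr11:58199556-58207591, plus strand) and *Irgm2* (ENSMUSG00000069874, chr11:58199618-58222782, plus strand), with positions from GENCODE vM21 on GRCm38. The annotated spans of *Irgm2* and *Igtp* overlap and share 162 exonic bases, although none of the 90-base stretches at their transcript ends was shared. *Iigp1* (ENSMUSG00000054072) lies on chromosome 18, overlaps no other annotated gene and shared none of these stretches either. *Tgtp1* (ENSMUSG00000078922) and *Tgtp2* (ENSMUSG00000078921) are near-identical neighbours on chromosome 11. Over the last 500 transcript bases, where 3' reads fall, 74.0% of the 90-base stretches of *Tgtp1* and 100% of those of *Tgtp2* occurred in another gene, in the main each other. Reads from such stretches cannot be assigned to either gene by sequence, so the split between *Tgtp1* and *Tgtp2* is uncertain and their level may be understated.

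Cells were sorted into classes by marker genes on each barcode, and the complement genes *C1qa*, *C1qb* and *C1qc* measured macrophage RNA. A T, NK or B cell gate needed 2 of its markers and a C1q share below 0.5 of the library's median. Macrophages needed a share of at least 0.25 of that median, and the other gates a share below 0.25. All 10 macrophage markers were each seen in at least 20% of macrophages in both libraries. The macrophage gate itself counts these markers, so this is not a separate check of identity. Macrophages numbered 5591 in UEIS KI and 5198 in UEIS LSL. C1q-low myeloid barcodes, which had macrophage markers but little C1q, numbered 1456 in UEIS KI and 1397 in UEIS LSL. All 10 markers were also each seen in at least 20% of these barcodes in both libraries. That figure therefore does not separate them from macrophages. UEIS KI held 437 monocytes, 90 cDC2, 52 mature dendritic cells and 68 neutrophils, and UEIS LSL 353, 119, 97 and 23 of them. Lymphocytes numbered 227 in each library, of which 146 in UEIS KI and 165 in UEIS LSL were T cells, 25 and 31 NK cells and 53 and 31 B cells. Fibroblast-like barcodes numbered 104 and 177. *Ptprc*, the CD45 gene of the sort, was seen in 7.69% of the fibroblast-like barcodes in UEIS KI and 11.3% in UEIS LSL, against 78.8% and 80.3% of macrophages. Classes with fewer than 20 cells in either library, cDC1 among them, are not described.

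IRG UMIs were counted in every class with enough cells except B cells in UEIS LSL, and the level of T cells came out highest in both libraries. Neutrophils, NK cells and B cells of UEIS KI and mature dendritic cells of UEIS KI rest on 2 to 4 UMIs each, where free RNA would bring at most 0.311 to 0.543. Levels are in CPM, a gene's UMIs scaled to all UMIs of the class. In UEIS KI the summed level of the 6 genes was 71.4 CPM (exact Poisson interval 50.2 to 98.4) in T cells, 45.7 (32.0 to 63.3) in cDC2, 36.5 (34.9 to 38.0) in macrophages and 28.0 (22.5 to 34.4) in monocytes. In UEIS LSL it was 184 CPM (158 to 215) in T cells, 103 (92.3 to 114) in fibroblast-like cells, 81.9 (79.4 to 84.4) in macrophages, 76.5 (60.4 to 95.4) in cDC2 and 67.8 (57.0 to 80.0) in monocytes. The cDC2 level of UEIS KI rests in part on 1 cell, which gave 13 of the 36 IRG UMIs as *Iigp1*. C1q-low myeloid barcodes were lower than macrophages in both libraries, at 17.6 CPM in UEIS KI and 38.9 CPM in UEIS LSL. With 10 classes put in order by level, no neighbouring pair in UEIS KI had a counting interval of its ratio clear of 0 on the log2 scale. In UEIS LSL the steps from T cells down to fibroblast-like cells (0.84, 0.57 to 1.11) and on to macrophages (0.33, 0.17 to 0.49) were clear of 0, and no later step was.

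**Figure D2:**
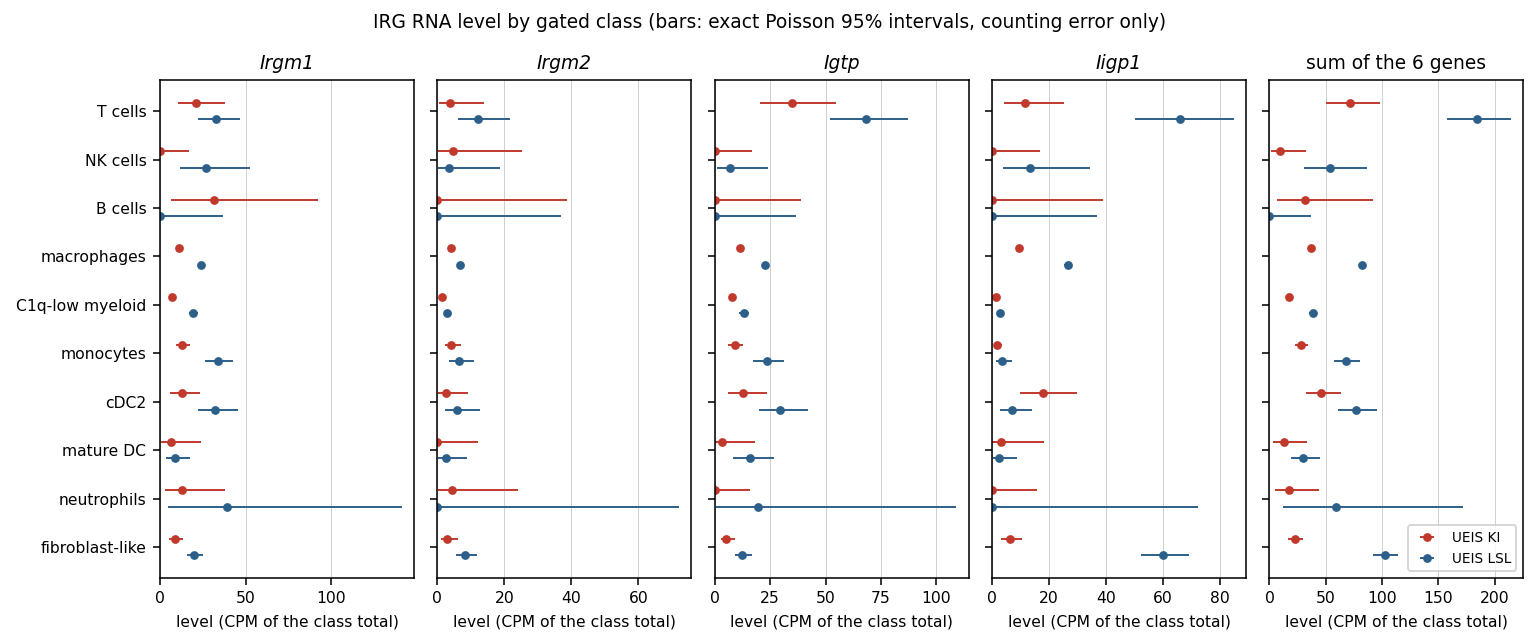
Level of 4 IRG genes and of the sum of the 6 in CPM of the class total (x axes, own scale per panel) in 10 gated classes, for UEIS KI (red, above) and UEIS LSL (blue, below). Bars are exact Poisson 95% intervals. T cells are highest for the sum in both libraries, and *Iigp1* is highest in T cells and fibroblast-like cells of UEIS LSL.

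The mix of family members differed between classes. A 3' count gives 1 UMI per captured molecule whatever the transcript's length, so shares of the IRG UMIs are not scaled for length. *Tgtp1* and *Tgtp2* may be understated, so the effector share may be too, and most of the counted effector UMIs were *Iigp1*. In macrophages the 3 regulators made up 73.3% (71.4 to 75.2) of IRG UMIs in UEIS KI and 65.7% (64.3 to 67.2) in UEIS LSL. In monocytes they made up 93.3% (86.1 to 97.5) in UEIS KI and 93.5% (88.1 to 97.0) in UEIS LSL, and in C1q-low myeloid barcodes 91.1% in both. Monocytes and C1q-low myeloid barcodes thus carried few effector UMIs, 6 of 90 and 25 of 281 in UEIS KI and 9 of 139 and 42 of 470 in UEIS LSL. In monocytes *Iigp1* was at 1.55 CPM in UEIS KI and 3.41 CPM in UEIS LSL, against 9.39 and 26.5 CPM in macrophages. The log2 ratio of monocytes over macrophages for *Iigp1* was -2.60 (-4.22 to -1.36) in UEIS KI and -2.96 (-4.28 to -1.91) in UEIS LSL. For *Irgm1* that ratio was 0.21 (-0.28 to 0.66) and 0.48 (0.11 to 0.83). The lowest regulator share was in fibroblast-like cells of UEIS LSL, at 39.5% (34.4 to 44.9), against 72.9% (58.2 to 84.7) in those of UEIS KI.

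In macrophages every member with enough counts was lower in UEIS KI. A gene counted as measured where the libraries together held 50 or more of its UMIs in the class, and was called lower where it was at least 1.5-fold lower with its counting interval on that side of 1. All 5 measured members were called lower, at a median log2 ratio of -1.09. *Tgtp2*, whose split from *Tgtp1* is uncertain, is among them. Of 13276 measured genes 5.07% were called lower and 5.09% higher, at a median of 0.03. The sum was 36.5 CPM in UEIS KI and 81.9 CPM in UEIS LSL, a log2 ratio of -1.17 (exact conditional binomial interval -1.24 to -1.09).

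Among the regulators *Irgm1*, which is also needed for normal autophagy and for survival of activated T cells in mice, had 669 UMIs (11.3 CPM) in UEIS KI macrophages and 1234 (24.1 CPM) in UEIS LSL ones, a log2 ratio of -1.09 (-1.23 to -0.95). *Igtp* had 663 UMIs (11.2 CPM) in UEIS KI and 1172 (22.9 CPM) in UEIS LSL, at -1.03 (-1.17 to -0.89). *Irgm2* had the smallest difference of the measured members, with 4.20 CPM in UEIS KI and 6.87 CPM in UEIS LSL, at -0.71 (-0.95 to -0.47). With every cell counted alike *Irgm2* was at -0.50, which is under 1.5-fold and ends its call. Among the effectors *Iigp1* had 555 UMIs (9.39 CPM) in UEIS KI and 1359 (26.5 CPM) in UEIS LSL, at -1.50 (-1.64 to -1.35). This counting interval lay below those of all 3 regulators, but it takes UMIs as independent. The *Iigp1* UMIs came from 170 macrophages in UEIS KI and 357 in UEIS LSL, so the interval is too narrow to rank the members. Under other processing choices *Iigp1* ranged from -1.58 to -1.22. *Tgtp2* had 18 UMIs in UEIS KI and 71 in UEIS LSL, at -2.19 (-3.02 to -1.42), but these UMIs cannot be told apart from those of *Tgtp1* by sequence. *Tgtp1* had 2 and 7 UMIs and was not measured by the limit above.

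**Figure D3:**
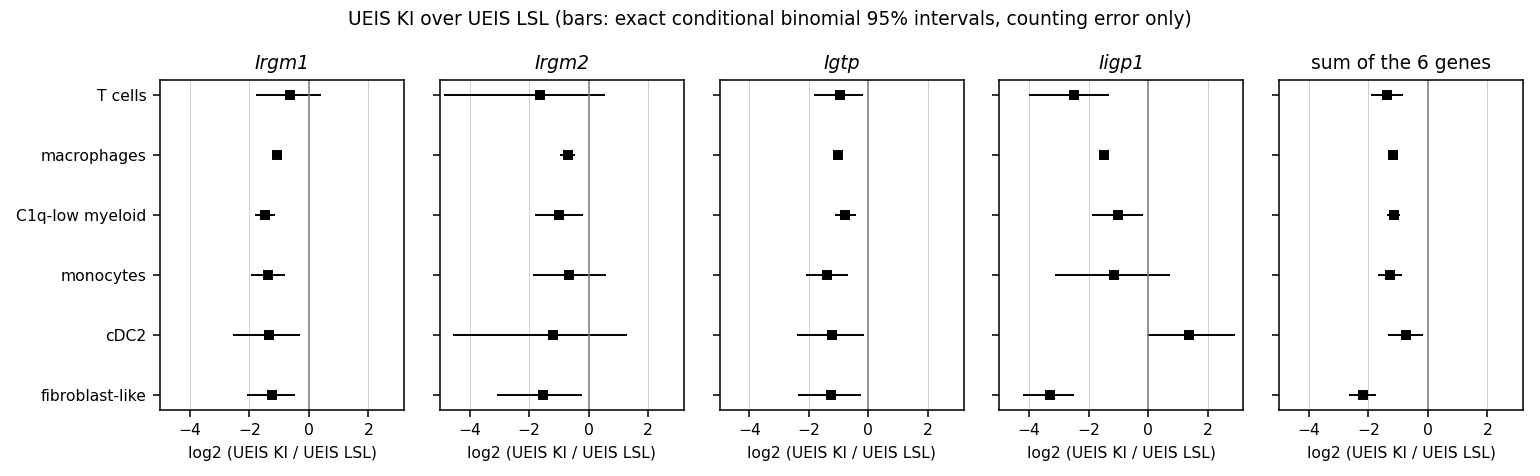
Log2 ratio of UEIS KI over UEIS LSL for 4 IRG genes and the sum of the 6 in 6 classes. Bars are exact conditional binomial 95% intervals for counting error, and the grey line marks no difference. The sum lies below 0 in all 6 classes. *Iigp1* in cDC2 is the single point above 0, with an interval that includes 0 and 13 of its 14 UEIS KI UMIs in 1 cell.

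The measured regulators were also lower in UEIS KI in C1q-low myeloid barcodes and monocytes. In C1q-low myeloid barcodes 4 of 4 measured members were called lower, where 6.93% of measured genes were. Of the 121 *Igtp* UMIs in UEIS KI, 18 came from 1 cell. The sum stood at -1.14 (-1.36 to -0.93), or at -2.32 with each cell thinned to 1000 UMIs. The thinned value rests on fewer than the 281 UMIs counted in UEIS KI and 470 in UEIS LSL, and has no interval. In monocytes both measured members were called lower against a background of 4.51%. *Irgm1* was at 13.1 CPM in UEIS KI monocytes and 33.6 CPM in UEIS LSL ones (-1.37, -1.95 to -0.79), and *Igtp* at 9.02 and 23.4 CPM (-1.38, -2.09 to -0.68). *Irgm2* had 13 UMIs in monocytes of each library, too few to be measured. With 1 more marker gene asked of a monocyte, *Irgm1* was at -0.55, which ends its call. Mature dendritic cells held only 4 IRG UMIs in UEIS KI and 25 in UEIS LSL, at -1.20 (-3.19 to 0.33), so no difference was detectable there at this depth. Neutrophils held 4 and 3 IRG UMIs.

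In cDC2, dendritic cells known for presenting antigen to helper T cells, the ratio of *Iigp1* came out above 0, but through 1 cell. No member reached 50 UMIs in cDC2, so none entered the count of calls. *Irgm1* had 10 UMIs in UEIS KI and 33 in UEIS LSL (-1.35, -2.53 to -0.29), and *Igtp* 10 and 30 (-1.21, -2.41 to -0.14). *Iigp1* had 14 UMIs in UEIS KI and 7 in UEIS LSL (1.37, -0.03 to 2.92), but 13 of the 14 came from 1 cell. The sum was at -0.74 (-1.35 to -0.15), at -1.51 without the barcode with most IRG UMIs in each library, and at -2.59 with 1 marker gene more.

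Lymphocytes carried IRG RNA mainly in their T cells. In UEIS KI T cells had 37 IRG UMIs where the macrophage level would have given 18.9, a ratio of 1.96-fold (1.37 to 2.71). In UEIS LSL they had 168 where it would have given 74.5, or 2.25-fold (1.92 to 2.63). T cells were smaller libraries, with medians of 2094.5 UMIs in UEIS KI and 3308 in UEIS LSL against 9541 and 8959 in macrophages. Counted per cell without scaling, T cells held 0.253 IRG UMIs and macrophages 0.385 in UEIS KI, the other way round, and 1.02 and 0.807 in UEIS LSL. *Igtp* led this difference, at 34.7 CPM in UEIS KI T cells against 11.2 CPM in macrophages (3.09-fold, 1.82 to 4.93), and 68.1 against 22.9 CPM in UEIS LSL (2.98-fold, 2.27 to 3.84).

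Macrophage RNA in the T cell barcodes was measured beside this. C1q stood at 721 CPM in UEIS KI T cells and 953 CPM in UEIS LSL ones, so at most 9.24% and 12.8% of their UMIs came from RNA with the makeup of the whole library. That RNA would bring at most 1.55 IRG UMIs in UEIS KI and 8.88 in UEIS LSL, where 37 and 168 were counted. T cell barcodes set apart for their macrophage RNA numbered 49 in UEIS KI and 168 in UEIS LSL and had a summed level of 57.5 and 110 CPM, at a log2 ratio of -0.93 (-1.51 to -0.40). In them 2 of 3 measured members were called lower, where 3.62% of measured genes were.

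Between the libraries both measured members were called lower in T cells of UEIS KI, where 7.34% of measured genes were. *Igtp* had 18 UMIs (34.7 CPM) in UEIS KI T cells and 62 (68.1 CPM) in UEIS LSL ones, at -0.97 (-1.82 to -0.20). With each cell thinned to 1000 UMIs *Igtp* was at -0.57, which is under 1.5-fold and ends its call. Thinning discards UMIs, so that value rests on fewer than these 18 and 62 and has no interval. *Iigp1* had 6 UMIs (11.6 CPM) in UEIS KI and 60 (65.9 CPM) in UEIS LSL, at -2.51 (-4.01 to -1.30). The 60 UMIs came from 18 cells, and the highest held 12. *Irgm1*, with 21.2 CPM in UEIS KI and 32.9 CPM in UEIS LSL, had an interval that included 0 (-0.63, -1.78 to 0.40), as did *Irgm2* on 2 and 11 UMIs. Over all lymphocytes 2 of 3 measured members were called lower against a background of 6.25%, and the sum had 42 UMIs in UEIS KI and 184 in UEIS LSL, a log2 ratio of -1.49. As UMIs per cell, with no scaling for depth, the summed ratio was -2.01 in T cells, where it was -1.37 (-1.92 to -0.85) by CPM, and -2.13 over all lymphocytes.

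T cells were also divided by single marker genes, into groups that include the *Foxp3*-positive regulatory type. These had a summed level of 110 CPM (60.1 to 184) in 25 cells of UEIS KI and 279 CPM (215 to 356) in 30 cells of UEIS LSL. T cells with *Cd8a* or *Cd8b1* had 64.7 CPM (17.6 to 166) in 17 cells of UEIS KI and 76.9 CPM (42.0 to 129) in 29 cells of UEIS LSL. Those with a gene of a gamma-delta list (*Trdc*, *Trgc1*, *Trgc2*, *Trgc4* or *Cd163l1*) had 63.1 CPM (25.4 to 130) in UEIS KI and 136 CPM (84.3 to 208) in UEIS LSL. Cells with none of these markers had 55.0 CPM (28.4 to 96.0) in UEIS KI and 199.9 CPM (156 to 253) in UEIS LSL. In UEIS KI the intervals of all 4 groups overlapped. In UEIS LSL those of the *Foxp3*-positive cells and the cells with none of these markers overlapped each other, and neither overlapped that of the *Cd8a* or *Cd8b1*-positive cells. *Iigp1* gave 36 of the 69 IRG UMIs in the cells with none of these markers, 21 of 64 in the *Foxp3*-positive and 2 of 14 in the *Cd8a* or *Cd8b1*-positive cells. The 60 *Iigp1* UMIs of UEIS LSL T cells came from 18 cells, so that separation rests in part on a gene seen in few cells. *Ifng*, the interferon that induces the family, stood at 75.2 CPM in UEIS KI T cells and 484 CPM in UEIS LSL ones, and the part of T cell *Ifng* in the IRG levels was not tested.

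NK and B cells were too few for single members. NK cells had 2 IRG UMIs in UEIS KI, where the macrophage level would have given 8.07, and 16 in UEIS LSL, where it would have given 24.5. The NK log2 ratio of UEIS KI over UEIS LSL was -2.56, with a wide interval of -5.73 to -0.48. B cells had 3 IRG UMIs in UEIS KI, all *Irgm1*, and 0 in UEIS LSL, where the macrophage level would have given 8.19. The 0 UMIs allow up to 36.9 CPM (exact Poisson upper bound).

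Fibroblast-like barcodes showed the widest gap between the libraries among the classes with measured members. All 3 measured members were called lower in UEIS KI, where 7.84% of measured genes were, and the sum was at 22.8 CPM in UEIS KI and 103 CPM in UEIS LSL (-2.17, -2.64 to -1.73). *Iigp1* had 13 UMIs (6.17 CPM) in UEIS KI and 204 (60.1 CPM) in UEIS LSL, at -3.28 (-4.22 to -2.48), with 29 of the 204 in 1 cell. Without *Iigp1* the sum was at -1.36, and with each cell thinned to 1000 UMIs at -3.06. The thinned value rests on few UMIs in UEIS KI and has no interval. *Irgm1* had 18 UMIs in UEIS KI and 68 in UEIS LSL (-1.23, -2.07 to -0.46) and *Igtp* 11 and 42 (-1.24, -2.35 to -0.26). Since the sort was for CD45, these are cells that passed it with little *Ptprc*, and they do not sample the fibroblasts of the tumour.

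Macrophages were further split, first into 4 states. Dividing cells (*Mki67*, *Top2a* and others) made up 25.5% of macrophages in UEIS KI and 19.2% in UEIS LSL, resident-like cells (*Lyve1*, *Folr2*, *Fcna*, *Cd163*) 27.8% and 11.9%, *Spp1*-high cells 32.6% and 26.4%, and the others 14.1% and 42.5%. The summed IRG level was lower in UEIS KI in all 4. It was 29.9 CPM in UEIS KI and 74.0 CPM in UEIS LSL in dividing cells (-1.31, -1.45 to -1.17), and 49.3 and 97.6 CPM in resident-like cells (-0.98, -1.15 to -0.82). *Spp1*-high cells had 30.7 and 60.1 CPM (-0.97, -1.13 to -0.81) and the others 51.0 and 98.9 CPM (-0.95, -1.15 to -0.77). *Spp1*-high and other cells were parted at the median *Spp1* level, and 381 of 2613 in UEIS KI and 602 of 3577 in UEIS LSL lay within 1.5-fold of it. With the states of UEIS KI and UEIS LSL set to 1 common mix, the macrophage ratio was -1.03. Cells high in MHC class II genes stood at -1.09 and those low in them at -0.89.

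A split by *Cxcl9*, an interferon-gamma-induced chemokine gene, gave another picture. A UMI of *Cxcl9* was seen in 2.84% of macrophages in UEIS KI and 11.6% in UEIS LSL, and 56 of 159 and 198 of 601 such cells had exactly 1. Among *Cxcl9*-positive macrophages *Iigp1* was at 112 CPM in UEIS KI and 111 CPM in UEIS LSL, a log2 ratio of 0.01 (-0.21 to 0.23). *Irgm1* was at 41.8 and 49.5 CPM (-0.24, -0.61 to 0.11), and *Igtp* at 35.7 and 53.7 CPM (-0.59, -0.98 to -0.22). The sum stood at 203 CPM in UEIS KI and 232 CPM in UEIS LSL (-0.19, -0.35 to -0.03). In macrophages with *Cxcl9* at 0 the sum was 30.7 and 58.5 CPM (-0.93, -1.02 to -0.84), and *Iigp1* was 5.86 and 13.3 CPM (-1.18, -1.38 to -0.99). The gap of the libraries was thus smaller in the *Cxcl9*-positive cells for the sum and for *Iigp1*, with intervals that did not overlap those of the cells at 0. Since *Cxcl9* and the IRG genes are induced by the same interferon, the split is not independent of the levels it divides.

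**Figure D4:**
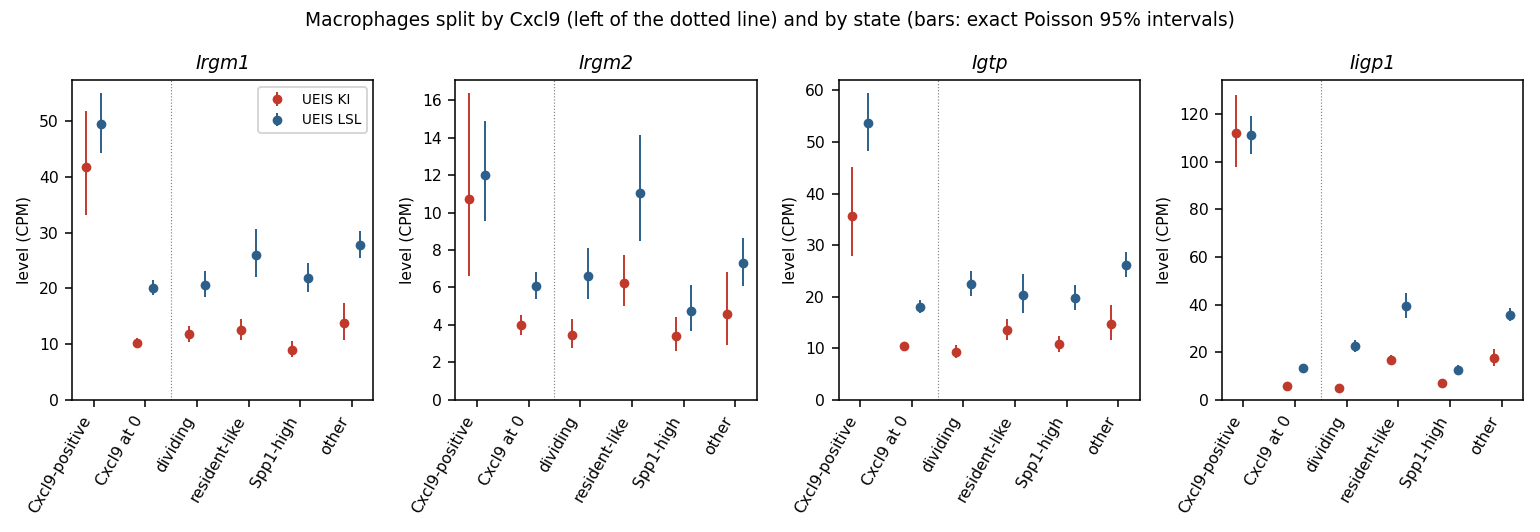
Level in CPM of 4 IRG genes in macrophages with and without a *Cxcl9* UMI (left of the dotted line) and in 4 macrophage states (right of it), for UEIS KI (red, left) and UEIS LSL (blue, right). Bars are exact Poisson 95% intervals. *Iigp1* is at about the same level in the *Cxcl9*-positive cells of both libraries and lower in UEIS KI in the other groups.

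*Iigp1* differed from the regulators in how its RNA was spread over cells. In UEIS KI its 555 UMIs came from 170 macrophages, where the same UMIs dealt out by depth would have reached 519, and in UEIS LSL its 1359 UMIs came from 357, where they would have reached 1153. *Irgm1* came close to such a spread, with 529 cells against 617 in UEIS KI and 874 against 1062 in UEIS LSL. The 1% of macrophages with most *Iigp1* held 76.0% of its UMIs in UEIS KI and 52.2% in UEIS LSL, while for *Irgm1* that share was 24.5% and 18.2%. The highest cell held 43 *Iigp1* UMIs in UEIS KI and 36 in UEIS LSL.

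Macrophages with at least 5 *Iigp1* UMIs numbered 27 in UEIS KI and 83 in UEIS LSL. Their other 5 members summed to 397 CPM (332 to 470) in UEIS KI and 454 CPM (412 to 499) in UEIS LSL. Macrophages with no *Iigp1* UMI had 21.8 CPM (20.6 to 23.0) in UEIS KI and 40.9 CPM (39.0 to 42.7) in UEIS LSL. The cells high in *Iigp1* were thus also high in the regulators, in both libraries. *Gbp2*, a guanylate-binding protein gene induced by the same interferon, was at 619 CPM in UEIS KI and 690 CPM in UEIS LSL in these cells. In cells with no *Iigp1* UMI it was at 16.4 and 49.1 CPM. *Isg15* and *Ifit3*, interferon-induced genes named after their values were seen, were also higher in the high cells. *Isg15* was at 598 CPM in UEIS KI and 549 CPM in UEIS LSL, against 30.6 and 75.2 CPM in cells with none. *Ifit3* was at 165 and 119 CPM, against 5.27 and 11.5 CPM. *Cxcl9* was at 496 CPM in UEIS KI and 1732 CPM in UEIS LSL in the same high cells, so here the libraries were apart. Their median depth was 10875 and 10843 UMIs, above the 9527 and 8842 of cells with none, and a UMI limit favours deep cells.

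**Figure D5:**
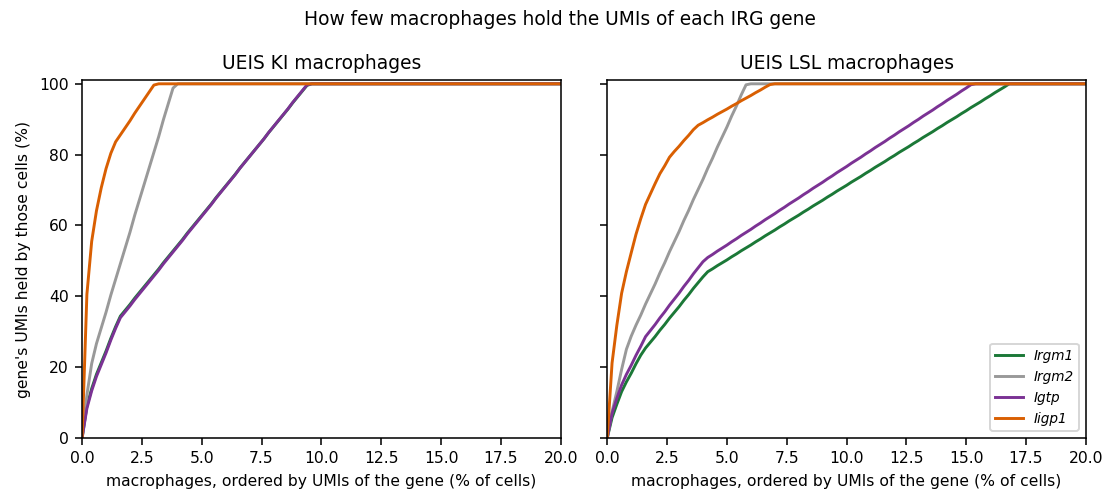
Share of the macrophage UMIs of *Irgm1*, *Irgm2*, *Igtp* and *Iigp1* (y axis, percent) held by the macrophages with most of them (x axis, percent of cells), in UEIS KI (left) and UEIS LSL (right). Of these 4 genes *Iigp1* climbs fastest at the left edge in both, with 76.0% and 52.2% of its UMIs in the top 1% of cells.

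Genes around the family were counted from lists of related genes. The guanylate-binding proteins, large GTPases that act with IRG proteins on vacuoles, were called lower in 8 of 8 measured members in macrophages, at a median log2 ratio of -1.37. Over all measured genes 5.07% were called lower there, the share beside which the macrophage counts of the lists stand. *Gbp2* was at 24.3 CPM in UEIS KI and 78.1 CPM in UEIS LSL (-1.69, -1.78 to -1.60), *Gbp7* at 27.6 and 48.5 CPM (-0.82, -0.91 to -0.73) and *Gbp3* at 12.4 and 24.0 CPM (-0.95, -1.09 to -0.82). A list of other IRG family genes, which did not hold *Ifi47* (described with the most alike genes), was called lower in 2 of 8 measured members, at a median of -0.33. *Gm12250* was called lower, with 4.45 CPM in UEIS KI and 9.50 CPM in UEIS LSL (-1.09, -1.32 to -0.87), and so was *9930111J21Rik1*, named after its value was seen (-1.04, -1.67 to -0.42). *Gm4951* (-0.57, -0.82 to -0.33) and *9930111J21Rik2* (-0.26, -0.41 to -0.11) were called neither way.

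Of the interferon-gamma pathway in macrophages, the receptor chains were called neither way, with *Ifngr1* at 220 CPM in UEIS KI and 267 CPM in UEIS LSL (-0.28, -0.31 to -0.24) and *Ifngr2* at -0.22 (-0.26 to -0.17), as was the transcription factor gene *Irf8* at -0.13. *Irf1* (-1.02, -1.10 to -0.95), which encodes a transcription factor that interferon-gamma induces, and *Socs1* (-0.98, -1.11 to -0.85), which encodes an inhibitor of its signalling, were called lower in macrophages and were named after their values were seen. The type I interferon list held 4 lower members of 7 measured in macrophages, where 5.07% of all measured genes were called lower, at a median of -0.64. Its receptor genes *Ifnar1* (-0.25, -0.31 to -0.20) and *Ifnar2* (-0.22, -0.27 to -0.17) were called neither way, while *Irf7* was at 26.5 CPM in UEIS KI and 46.3 CPM in UEIS LSL (-0.81, -0.90 to -0.72). The other 3, *Ifnb1*, *Stat2* and *Irf9*, were named after their values were seen and stood at -1.70 (-2.47 to -0.98), -0.64 (-0.79 to -0.50) and -0.69 (-0.79 to -0.58).

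The ubiquitin-like conjugation genes of autophagy, whose proteins help IRG effectors to find the vacuole in mouse cells, had 0 of 10 measured members called in macrophages, at a median of 0.06. *Gabarap* was at 961 CPM in UEIS KI and 894 CPM in UEIS LSL (0.10, 0.09 to 0.12), *Map1lc3b* at 221 and 200.4 CPM (0.14, 0.11 to 0.18) and *Gabarapl2* at 116 and 124 CPM (-0.10, -0.15 to -0.05). In T cells this list had 1 of 7 measured members called higher, where 6.29% of measured genes were. It was *Gabarapl2* (0.73, 0.37 to 1.08). The guanylate-binding list had 2 of 3 measured members called lower in T cells, where 7.34% of measured genes were, with *Gbp2* at 23.1 CPM in UEIS KI and 46.1 CPM in UEIS LSL (-0.99, -2.06 to -0.04).

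The genes whose level over classes and libraries was most like the summed IRG level were *Ifit1*, *Fam234b*, *Lgals3bp*, *Ifi47* and *Mettl7a1*, with Spearman correlations of 0.73, 0.72, 0.71, 0.71 and 0.70 among 10640 genes. The 20 points were 10 classes in each of 2 libraries, so points of 1 library share its depth and its free RNA, and classes of few cells weigh as much as macrophages. *Ifi47*, itself an IRG family gene (Irgd), was at 20.2 CPM in UEIS KI macrophages and 51.9 CPM in UEIS LSL ones, and at 75.2 and 88.9 CPM in T cells. *Ifit1*, an interferon-induced RNA-binding protein gene, was at 12.3 CPM in UEIS KI macrophages and 24.7 CPM in UEIS LSL ones, and at 156 and 223 CPM in T cells. *Lgals3bp*, which encodes a secreted galectin-binding protein, was at 69.7 CPM in UEIS KI macrophages and 100.1 CPM in UEIS LSL ones. *Fam234b* (6.23 and 8.21 CPM) and *Mettl7a1* (7.43 and 6.36 CPM) were low in macrophages, and *Fam234b* had at most 14 UMIs in any class outside macrophages and C1q-low myeloid barcodes.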

How the data were processed

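The authors deposited 1 matrix per library of raw counts (UMIs by gene and barcode), not normalised. The submitters' processing notes name Cell Ranger 2.1.1 and mm10, the file header names 8.0.1, and the annotation is not given in the sources used here. Of 55357 gene identifiers 94.1% matched GENCODE vM21.

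Kept barcodes had 500 or more UMIs, 200 or more detected genes and a mitochondrial share of no more than 10%, less the highest Scrublet scores (scanpy 1.11.5), 0.8% per 1000 barcodes. Gates counted markers per barcode, with at least 5 of 10 for macrophages. UMIs were summed per class and library and scaled to CPM. Intervals are exact Poisson and conditional binomial (scipy 1.17.1). The ratio intervals were also run on simulated counts. Those were drawn as Poisson, so they could not show how the intervals behave where UMIs gather in few cells. No p-value was computed.

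The members and gene lists were chosen with earlier results of these data known. The gate limits, the precedence of neutrophil and fibroblast over monocyte gates and the C1q-low myeloid class were set after the data were seen. Named genes were all 6 members, the 5 most alike by Spearman correlation of log2(CPM + 10), and 3 per list with the highest macrophage level. Alternatives covered doublets, quality limits, gates, thinning, free RNA, scaling and members. Thinning was a random draw that was not repeated and that left few UMIs in small classes, and its values have no interval. 1 gene of the interferon-gamma list, and that list's counts, are not reported here.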

Additional observations from a re-analysis of the deposited data

How the results depend on the processing

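Over 19 results and 243 alternatives 217 values stayed within the counting interval of the reported one, 25 moved out of it and 1 reversed. The summed log2 ratio of UEIS KI over UEIS LSL in macrophages (-1.17) was -1.08 with every cell counted alike, -1.02 with cells thinned to 1000 UMIs, -1.07 as UMIs per cell, and -1.03 both without *Iigp1* and with the same mix of states. In cDC2 (-0.74) it was -2.59 with 1 marker gene more and -1.51 without the barcode with most IRG UMIs in each library, an alternative chosen after seeing the data. As UMIs per cell it was -2.01 in T cells (-1.37) and -2.13 in all lymphocytes (-1.49), where depth per cell differed between the libraries. T cells over macrophages in UEIS KI (0.97) reversed to -0.60 as UMIs per cell. In UEIS LSL (1.17) that ratio was 0.34 as UMIs per cell, 0.69 with no C1q limit, 0.90 with 1 marker gene more and 1.48 with every cell counted alike. The cause was not tested for the other values. Depth limited NK, B and dendritic cells, which held 0 to 78 IRG UMIs per library. No paired analysis was possible because each group held 1 library, and for the same reason no replicate could be left out.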
